A study of Mus musculus with 2 samples.

Results

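Lymphatic endothelial cells line the vessels that return tissue fluid and leukocytes to the circulation. Here they were chosen by their own counts, as cells of 2 tumour sections that carried at least 1 transcript of Prox1 and at least 1 of Mmrn1 among 20 or more gene counts. Of 439752 cells with that many counts, 1460 met the rule, 1392 in the RKP section and 68 in the EKP section. PROX1 is the homeobox factor that sets lymphatic identity in endothelium and is needed to keep it, and MMRN1 (multimerin) is a secreted protein of platelets and endothelium that is strong in lymphatic vessels. The lymphatic endothelium arises mainly from veins, so the cells keep the common endothelial genes (Pecam1, Kdr, Tie1) while they shed parts of the blood vessel programme. LYVE1, a hyaluronan receptor on the finest lymphatic vessels and on some tissue macrophages, and TBX1, a T-box factor needed for lymphatic growth in mice, were the markers that the rule did not use.

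Both sections were subcutaneous mouse tumours labelled diffuse gastric cancer, measured in place by Xenium, which counts single transcripts of a chosen gene panel under the microscope. The RKP tumour grew from RKP cells and the EKP tumour from EKP cells. In either case 3000000 cells cultured in 2 dimensions were given with Matrigel into both flanks of C57BL/6 mice that were 5 weeks old, and tumours were collected at similar final volumes and embedded together in 1 paraffin block. The labels spell out neither line name, nor do they tie the RHOA change of the series title to a line. Each group had 1 section, so no test between groups was possible. Kinds of cell were compared within a section without a test, and all intervals below are exact 95% intervals that cover counting error, not the spread between tumours.

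The RKP section held 255744 cells and the EKP section 261111, with medians of 154 and 84 gene counts per cell over a panel of 379 genes and 100 added ones. Transcripts were assigned to cells by the submitters, so a cell could hold transcripts of its neighbours. In a section, fewer cells of a type and less RNA per cell cannot be told apart by a rule that needs detected transcripts. The sections shared 19 cell names, of which 0 belonged to lymphatic cells. As comparison cells served those with 2 or more of Pecam1, Kdr, Tie1, Vwf and Plvap and no transcript of Prox1 or Mmrn1, called blood endothelial cells here, of which there were 20856 in RKP and 23944 in EKP.

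Lymphatic cells were far more frequent in RKP. They made up 0.561% (0.532 to 0.591%) of RKP cells with 20 or more counts and 0.0355% (0.0275 to 0.0450%) of EKP cells, a ratio of 15.8 (12.4 to 20.5). The ratio was 32.7 among cells with 80 or more counts, 34.9 with 2 or more counts of both genes and 41.7 with 2 of the 5 endothelial genes required. Blood endothelial cells went the other way, at 8.41% of RKP cells and 12.5% of EKP cells. Set against them, there were 66.7 lymphatic cells per 1000 blood endothelial cells in RKP and 2.84 in EKP, a ratio of 23.5 (18.4 to 30.4). The values came from 1 tumour of each line.

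The cells were spread unevenly over each section's cell list. When each list was divided into 10 parts in file order, RKP parts held 18 to 270 lymphatic cells with a median of 119.5, and EKP parts held 0 to 20 with a median of 6.5. Per 1000 blood endothelial cells this gave 6.12 to 191 in RKP parts and 0 to 10.0 in EKP parts. The lowest RKP part thus lay below the highest EKP part, while the RKP median of 62.6 stood above every EKP part. What the parts correspond to in the tissue was not tested, since cell positions were not used here.

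**Figure D1:**
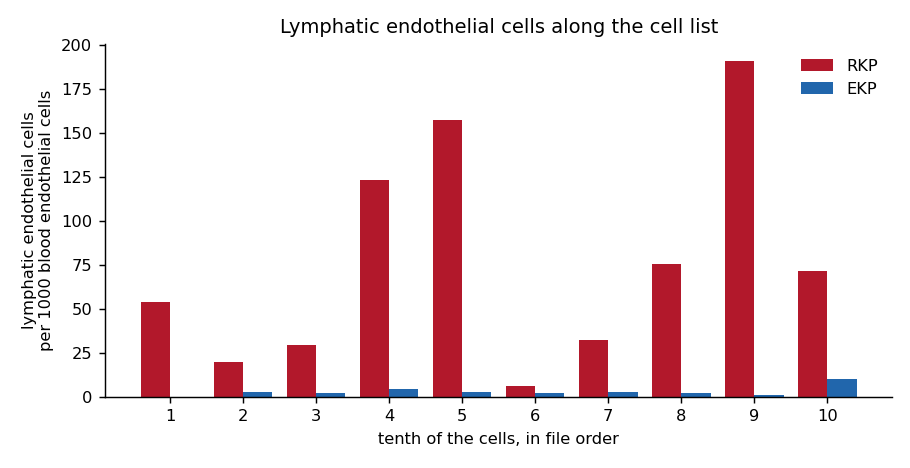
Bars give lymphatic endothelial cells per 1000 blood endothelial cells (vertical axis) in each of 10 equal parts of a section's cells in file order (horizontal axis), RKP left of EKP. RKP parts ran from 6.12 to 191 and EKP parts from 0 to 10.0.

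The transcripts that chose the cells were deep in RKP and at the limit in EKP. Mmrn1 had a median of 4 counts and a highest value of 27 in RKP members, against a median of 1 and a highest value of 23 in EKP members. Prox1 stood at exactly 1 count in 40.1% of RKP members and 72.1% of EKP members. Members with both genes at 1 count, just inside the rule, were 170 of 1392 in RKP (12.2%) and 42 of 68 in EKP (61.8%). Just outside it, 909 RKP cells and 1022 EKP cells had Prox1 without Mmrn1, and 2118 RKP cells and 2124 EKP cells had Mmrn1 without Prox1. Of all cells with Prox1, 60.5% also had Mmrn1 in RKP and 6.24% in EKP. A further 2 RKP cells and 14 EKP cells had both genes but under 20 counts. Around that limit, Lyve1 was in 1 of 2 RKP cells and 0 of 8 EKP cells with 15 to 19 counts, and in 2 of 5 RKP cells and 0 of 11 EKP cells with 20 to 24 counts.

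Checked against endothelial and lymphatic markers, the label held for most RKP members and for a minority of EKP members. Of the RKP members, 1187 of 1392 had 2 or more of the 5 endothelial genes and 1140 had Lyve1 or Tbx1. Of the EKP members, 22 of 68 had 2 or more of the 5 genes, 41 had none of them, and 25 had Lyve1 or Tbx1. The median depth was 139 counts in RKP members and 51.5 in EKP members, and 30 of 1392 RKP members and 26 of 68 EKP members had under 40 counts.

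EKP members differed by depth. The 44 with under 80 counts included 3 with 2 or more of the 5 endothelial genes, 7 with Lyve1 and 0 with Tbx1. Genes that stayed under 100 CPM (counts per 1000000 gene counts) in both sections, 140 genes in all without the lymphatic list, made up 11.6% of their counts, against 1.07% in EKP blood endothelial cells with under 80 counts. The 24 EKP members with 80 or more counts included 19 with 2 or more of the 5 genes, 18 with Lyve1 and 8 with Tbx1, and the rare genes made up 0.360% of their counts. RKP members with under 80 counts still had 2 or more of the 5 genes in 67.3% and Lyve1 in 46.8% of 205 cells, with 0.566% of counts from the rare genes. EKP values below are for all 68 cells unless said otherwise, and those that results rest on are also given for the 24 deeper ones or the 17 with at least 2 counts of both Prox1 and Mmrn1. The limit of 80 counts was added after the values were seen.

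**Figure D2:**
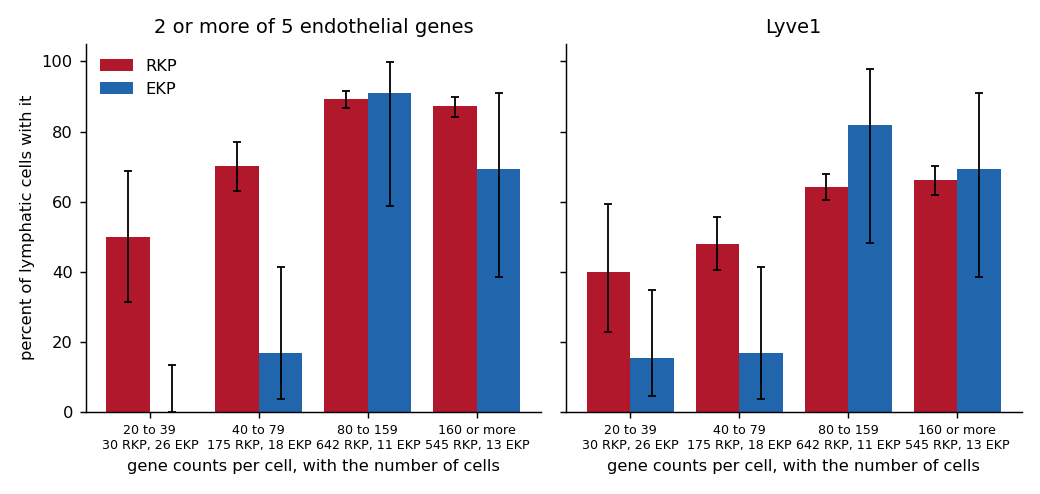
Bars give the percent of lymphatic cells (vertical axes) that carried 2 or more of Pecam1, Kdr, Tie1, Vwf and Plvap (left) or Lyve1 (right), by gene counts per cell, RKP left of EKP, with exact 95% intervals. Under 80 counts the EKP bars reach at most 16.7%, while the RKP bars start at 40%.

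Lyve1 and Tbx1, which the rule did not use, were concentrated in the lymphatic cells of RKP. Lyve1 was found in 62.4% (59.8 to 64.9%) of RKP members and 1.93% of RKP blood endothelial cells, whose median depth was 163 counts. Tbx1 was found in 55.0% (52.3 to 57.6%) of RKP members and 1.06% of those blood endothelial cells. When every cell was thinned at random to 40 counts, which left out 30 members, the RKP shares were 39.6% for Lyve1 and 25.9% for Tbx1, against 0.599% and 0.297% in blood endothelial cells. As summed levels, Lyve1 was 126-fold (115 to 138) and Tbx1 111-fold (97.4 to 128) higher in RKP members than in blood endothelial cells.

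In EKP, Lyve1 was found in 36.8% (25.4 to 49.3%) and Tbx1 in 11.8% (5.22 to 21.9%) of the 68 members, against 3.65% and 0.472% of blood endothelial cells. The summed levels were 137-fold (116.8 to 159.1) and 110-fold (64.1 to 179) higher in members. Among members with at least 2 counts of both Prox1 and Mmrn1, 532 of 768 in RKP had Lyve1 and 516 had Tbx1, while in EKP 17 of 17 had Lyve1 and 8 had Tbx1. In these cells Lyve1 stood at 19377 CPM for RKP, against 66045 CPM for EKP, with an RKP over EKP ratio of 0.293 (0.252 to 0.344). Tbx1 stood at 9424 CPM for RKP and 7090 CPM for EKP. Over all members the Lyve1 level was also lower in RKP, at a ratio of 0.527 (0.457 to 0.612), while the share of cells with Lyve1 was higher there, so no order is read from the share.

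Within RKP, the markers varied among members. Of the 868 members with Lyve1, 493 also had Tbx1, while 272 members had Tbx1 without Lyve1 and 252 had neither. Tbx1 was seen in 56.8% of members with Lyve1 and 51.9% of members without it. Members with 5 or more Mmrn1 counts had Lyve1 in 77.5%, those with 2 to 4 counts in 55.7% and those with 1 count in 36.9%, at median depths of 158, 119 and 115.5 counts. Cells with a single rule gene lay between members and the rest in RKP. Lyve1 was in 26.5% of RKP cells with Mmrn1 alone and 10.2% of those with Prox1 alone, against 1.34% of the remaining RKP cells. In EKP these shares were 5.56%, 4.89% and 2.64%.

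**Figure D3:**
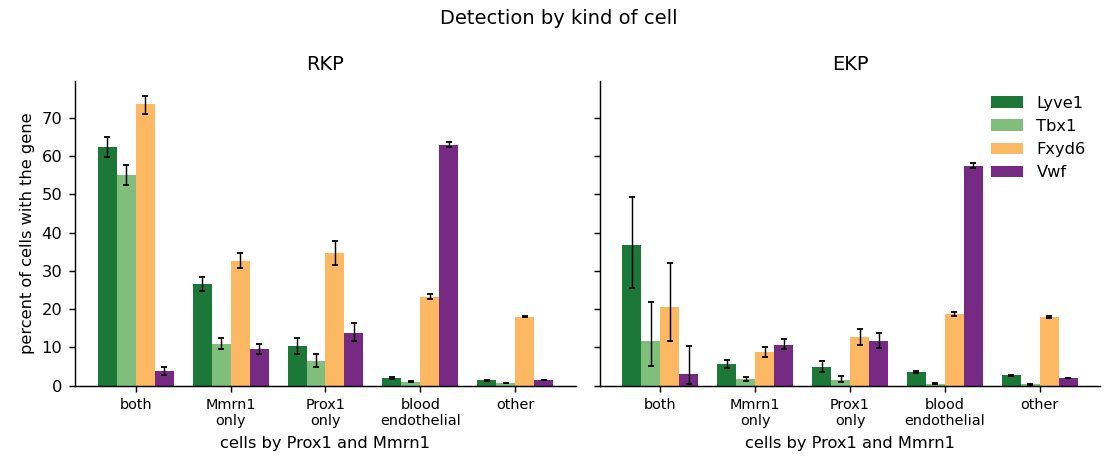
Bars give the percent of cells (vertical axis) with Lyve1, Tbx1, Fxyd6 and Vwf by kind of cell: members with both Prox1 and Mmrn1, cells with either gene alone, blood endothelial cells and all other cells, RKP panel left of EKP, with exact 95% intervals. In RKP, Lyve1, Tbx1 and Fxyd6 were highest and Vwf was 3.81% in cells with both genes.

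Counts were next summed over all cells of a kind and given as CPM, and a gene was called at a 2-fold ratio or more. In RKP, 55 of 396 genes with enough counts (13.9%) were higher in lymphatic than in blood endothelial cells and 79 (19.9%) were lower. In EKP, 218 of 463 (47.1%) were higher and 58 (12.5%) lower, on 6188 summed counts against 212221 in RKP. With 80 or more counts per cell, EKP had 70 higher genes. Over genes with 20 or more lymphatic counts seen, or awaited at the blood endothelial level, 13.6% of 294 genes were higher and 20.4% lower in RKP, and 14.6% of 96 were higher and 25% lower in EKP. The median log2 ratio over all tested genes was -0.15 in RKP and 1.10 in EKP. In both sections at once, 38 of 395 genes (9.62%) were higher and 24 (6.08%) lower. Since Prox1, Mmrn1 and the 5 endothelial genes chose the cells, they received no call. Levels of different genes were not compared.

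Among the genes higher in both sections, the ones with the largest ratios after Lyve1 and Tbx1 were of mixed kinds. Gap43, a growth-associated membrane protein best known from neurons, had 3793 CPM in RKP members and 95.5 in RKP blood endothelial cells (39.7-fold, 35.0 to 45.1), and 5171 against 58.0 in EKP (89.1-fold, 59.7 to 129). Nts, which encodes the peptide neurotensin, was 10.9-fold (10.2 to 11.6) higher in RKP and 6.91-fold (4.15 to 10.8) in EKP. Serpina3n, a secreted serine protease inhibitor, was 14.8-fold (13.9 to 15.7) and 6.33-fold (4.45 to 8.74) higher. These 3 genes also passed 2-fold in the 24 deeper EKP members, at 111-fold for Gap43, 9.29-fold for Nts and 7.38-fold for Serpina3n. Over the 10 RKP parts of the cell list, the ratio ran from 10.0 to 400 for Gap43, 8.83 to 43.1 for Nts and 6.36 to 113 for Serpina3n. These ranges are wider than the RKP intervals, which cover counting error alone. Thbs4, a thrombospondin of the matrix, was 6.21-fold and 6.78-fold higher, and 5.75-fold (1.18 to 16.9) on 3 transcripts in the deeper EKP members.

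For 4 further genes the EKP value rested on 1 to 4 transcripts. Kng2, a kininogen, was 43.8-fold (33.8 to 57.2) higher in RKP and 12.2-fold (3.30 to 31.6) in EKP. Cldn11, a tight junction claudin, was 34.1-fold (25.1 to 46.6) higher in RKP and 7.88-fold (0.197 to 45.0) in EKP on 1 transcript. Comp, a cartilage matrix protein, was 12.9-fold and 4.99-fold (0.601 to 18.2) higher, and Ppp1r1a, an inhibitor of protein phosphatase 1, 6.59-fold and 15.6-fold (1.86 to 57.9). The EKP intervals of Cldn11 and Comp spanned 1. In the deeper EKP members Cldn11 and Ppp1r1a had 0 transcripts, Comp 1 and Kng2 2.

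Fxyd6, a regulator of the sodium pump, was found in 73.5% of RKP members and 23.3% of RKP blood endothelial cells, and was 6.96-fold (6.67 to 7.26) higher in members. In EKP its ratio was 1.82 (1.04 to 2.96) over all members and 3.15 (1.63 to 5.51) in the 17 with at least 2 counts of both rule genes. Its share in RKP members ran from 59.4% to 87.3% over the 10 parts of the cell list, and its ratio exceeded 3 in each of them (3.26 to 21.4). Lyve1, Tbx1, Gap43, Nts and Serpina3n were likewise above 1 in all 10 RKP parts. The parts are slices of 1 section and not replicates, and these genes ranked high over the same cells. The values therefore describe spread within the section and are no further support. Of the 9 EKP parts with members, which were few in each, Lyve1 was above 1 in 5 and Gap43 in 4. Fxyd6, Tbx1, Nts and Serpina3n were above 1 in 3 of the 9.

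**Figure D4:**
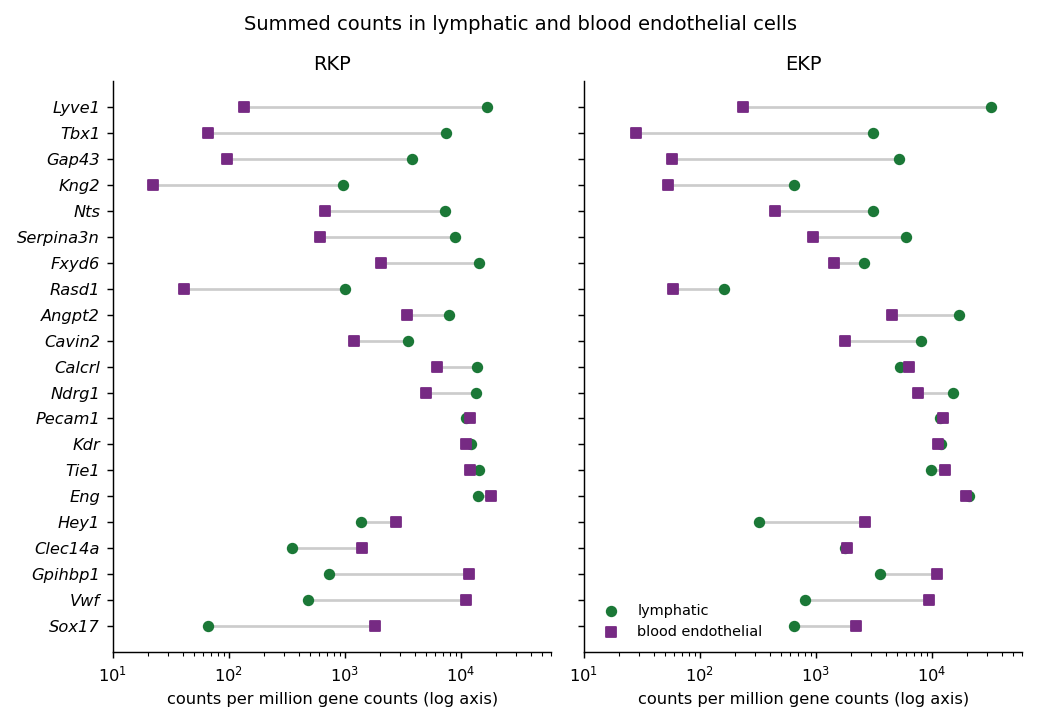
Points give summed CPM (horizontal log axes) for 21 genes (vertical axis) in lymphatic cells (circles) and blood endothelial cells (squares), RKP panel left of EKP. In both sections the circles lie right of the squares for the genes from Lyve1 down to Cavin2, beside the squares for Pecam1 and Kdr, and left of them from Hey1 down, least so for Clec14a in EKP at a ratio of 0.956.

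Some endothelial genes stood at the blood endothelial level in lymphatic cells and others far below it. In RKP the pan-endothelial genes stood near the blood endothelial level, at ratios of 0.919 for Pecam1 (an adhesion molecule), 1.11 for Kdr (VEGF receptor 2), 1.19 for Tie1 (an orphan receptor of the angiopoietin system), 1.06 for Plvap (the diaphragm protein of fenestrae) and 1.09 for Podxl (a sialomucin). In EKP, Pecam1 and Kdr were at 0.941 and 1.07, while Plvap was at 0.2498 (0.163 to 0.366) and Podxl at 0.299 (0.195 to 0.438). Blood endothelial cells had to carry 2 of Pecam1, Kdr, Tie1, Vwf and Plvap and members did not, so the ratios of these 5 genes are descriptions.

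Vwf, the von Willebrand factor of blood vessel endothelium and another of the genes that chose the comparison cells, was in 3.81% of RKP members and 62.9% of RKP blood endothelial cells. Outside the rule, Sox17, an arterial transcription factor, had 66.0 CPM in RKP members and 1811 in blood endothelial cells (27.5-fold lower), and Gpihbp1, the capillary anchor of lipoprotein lipase, 726 and 11781 (16.2-fold lower). In EKP the ratios were 0.290 (0.0790 to 0.743) for Sox17 and 0.320 (0.201 to 0.485) for Gpihbp1. The Notch target Hey1 was at 0.499 (0.443 to 0.560) in RKP and 0.123 (0.0149 to 0.445) in EKP. Clec14a, a C-type lectin of vessels, was at 0.248 (0.194 to 0.312) in RKP and 0.956 (0.477 to 1.71) in EKP. In the deeper EKP members the ratios were 0.102 (0.00259 to 0.571) for Sox17, 0.350 (0.204 to 0.561) for Gpihbp1, 0.0863 (0.00219 to 0.481) for Hey1 and 1.12 (0.511 to 2.12) for Clec14a, with 1 transcript each of Sox17 and Hey1. Of the 7 genes of the blood endothelial list outside the rule, 4 were lower in each section and 1, Angpt2, was higher, beside 19.9% lower and 13.9% higher of all genes in RKP and 12.5% and 47.1% in EKP.

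Angpt2, a ligand of the TIE2 receptor, and Cavin2, a caveola coat protein, were higher in lymphatic cells of both sections. Angpt2 had 7921 CPM in RKP members against 3410 in RKP blood endothelial cells (2.32-fold, 2.21 to 2.44), and 17130 against 4505 in EKP (3.802-fold, 3.11 to 4.60). Cavin2 was 2.87-fold (2.65 to 3.10) and 4.59-fold (3.40 to 6.05) higher, while Cav1 was at 1.43 and 1.45, under the 2-fold line. In the deeper EKP members Angpt2 was 4.83-fold (3.90 to 5.90) and Cavin2 6.07-fold (4.44 to 8.11) higher. Without cells of mixed content, their EKP log2 ratios were -2.67 for Angpt2 and -0.69 for Cavin2, the other direction. That setting left 15 EKP members, most of them without Lyve1, and 593 EKP blood endothelial cells. Calcrl, the receptor part shared by adrenomedullin and CGRP, was 2.22-fold (2.13 to 2.30) higher in RKP and at 0.842 (0.580 to 1.18) in EKP, or 1.14 (0.782 to 1.62) in the deeper EKP members. Ackr3, a scavenger receptor for CXCL12 and adrenomedullin, was at 2.00 (1.89 to 2.12) in RKP, on the line, and at 0.659 (0.384 to 1.05) in EKP.

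Of 3 hypoxia genes, Ndrg1 was 2.72-fold (2.61 to 2.83) higher in RKP and 2.03-fold (1.64 to 2.48) in EKP, and Hif1a was at 1.01 in RKP and 0.384 in EKP. In the deeper EKP members Ndrg1 was at 2.35 and Hif1a at 0.436. Of 6 proliferation genes, 0 passed 2-fold in RKP, beside 13.9% higher and 19.9% lower of all genes, a share at which so few members say little. Mki67 was at 1.24 (1.16 to 1.33) and Top2a at 1.18 (1.10 to 1.27), and Mki67 was found in 28.8% of RKP members and 26.4% of RKP blood endothelial cells. In EKP, Top2a and Ube2c were lower, on 10 transcripts and on 1, beside 47.1% higher and 12.5% lower of all genes there. The hyaluronan receptor Cd44 was at 0.725 in RKP and 0.732 in EKP. Both measured lipid genes, Cd36 and Gpihbp1, were lower in either section, beside 19.9% lower of all genes in RKP and 12.5% in EKP. Cd36 was at 0.410 (0.348 to 0.480) in RKP and 0.266 (0.0726 to 0.682) in EKP, or 0.198 on 2 transcripts in the deeper EKP members. Of 4 BMP and TGF-beta genes, Smad6, an inhibitor of BMP signals, was lower in RKP, at 0.278 (0.186 to 0.401). In EKP, Bmp2 and Smad7 passed the line, at 0.456 (0.124 to 1.17) on 4 transcripts and 0.418 (0.168 to 0.862) on 7. Beside the same shares of all genes, calls in lists this short say little about the lists.

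Genes of neighbouring cell types were present in both kinds of cell. In RKP, 2 or more genes of the pericyte and smooth muscle list were found in 49.3% of members and 78.5% of blood endothelial cells, and in EKP in 26.5% and 83.5%. Such shares rise with depth and were not thinned. Median depths of members and blood endothelial cells were 139 and 163 counts in RKP, and 51.5 and 173.5 in EKP. For the epithelial list the shares were 23.99% and 48.0% in RKP, and for the macrophage list 55.5% and 64.2%. Some genes lower in both sections were of these lists: the pericyte gene Rgs5 at 0.158 in RKP and 0.228 in EKP, the epithelial genes Epcam at 0.331 and 0.289 and Cldn4 at 0.338 and 0.138, and Mmp9, a neutrophil gene, at 0.357 and 0.225. In the deeper EKP members these were at 0.201 for Rgs5, 0.139 for Epcam, 0.0935 for Cldn4 and 0.114 for Mmp9. The others of the 10 genes ranked lowest in both sections together were Tbx3, a T-box factor, at 0.276 in RKP and 0.195 in EKP, Acan, the cartilage proteoglycan aggrecan, at 0.319 and 0.233, the mucin gene Muc1 at 0.349 and 0.165, and Gm13889 at 0.364 and 0.159. Except for Acan, with 8, these rested on 2 EKP transcripts each. All 8 pericyte genes, 6 epithelial genes and 14 macrophage genes were above 0 in RKP members, with summed levels of 33060, 17929 and 29436 CPM against 55142, 38497 and 39062 in RKP blood endothelial cells. In EKP members 1 pericyte gene was at 0, and the 3 lists summed to 18746, 20524 and 34745 CPM, against 60535, 41301 and 23644 CPM in EKP blood endothelial cells. Of the fibroblast list, Dpt was 4.13-fold and 4.10-fold and Pi16 2.47-fold and 5.81-fold higher in members. Gli1, a target of hedgehog signals, was at 0.391 in RKP and at 2.27 (0.0574 to 12.8) on 1 transcript in EKP. The other 5 of the 8 passed the line in neither section. Of all genes, 13.9% were higher and 19.9% lower in RKP, and 47.1% and 12.5% in EKP, so these calls say little about the list. The list summed to 47107 CPM in members and 54364 CPM in blood endothelial cells in RKP, and to 72075 and 62826 CPM in EKP. Mrc1, a mannose receptor of macrophages and lymphatic endothelium, was at 1.14 in RKP and 1.97 in EKP. The part of neighbouring cells in the ratios was not tested. When cells with 2 or more genes of any such list were left out, 148 RKP members and 15 EKP members remained, of which 53.4% and 6.67% had Lyve1.

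Between the sections, lymphatic cells differed in 46 genes higher in RKP and 64 lower in RKP among 278 genes (16.5% and 23%). Fewer genes had enough counts under other settings. The number lower in RKP was 39 of 275 with 80 or more counts and 33 of 263 with 2 of the 5 endothelial genes. It was 30 of 247 with 2 or more counts of both rule genes and 31 of 215 thinned. Without cells of mixed content, 4 of 101 genes were lower in RKP and 29 of 101 higher. Blood endothelial cells differed in 8.41% and 20.3% of 464 genes. Among the genes highest in RKP members were Fxyd6 at 5.53-fold (3.40 to 9.69), Podxl at 3.92-fold (2.67 to 6.00), Plvap at 3.76-fold (2.56 to 5.77) and Timp3, an inhibitor of metalloproteinases, at 3.24-fold (2.35 to 4.61). Hif1a at 2.86, Calcrl at 2.57 and S100a4 at 2.52 followed. In blood endothelial cells the same RKP over EKP ratios were 1.44 for Fxyd6, 1.07 for Podxl, 0.888 for Plvap, 1.04 for Timp3, 1.09 for Hif1a, 0.976 for Calcrl and 1.20 for S100a4. No ratio among blood endothelial cells reached 2 for these genes. Plvap helped choose the blood endothelial cells, so it is not among the 46 called genes. Its ratios, 0.888 included, are descriptions.

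Since 44 EKP members were shallow, the ratios were also taken in cells with 80 or more counts. There Fxyd6 was at 4.74 (2.77 to 8.92), Podxl at 3.42 (2.24 to 5.54), Plvap at 2.86 (1.92 to 4.47), Timp3 at 2.81 (1.97 to 4.18) and Hif1a at 2.54 (1.73 to 3.89). Calcrl at 1.88 and S100a4 at 1.99 lay under the 2-fold line. The EKP side then rested on 13 transcripts of Fxyd6 and 21 of Podxl.

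Lower in RKP members were Klra8 at 0.0405, Ppbp at 0.0648, Dnase1l3 at 0.129, Clec4a3 at 0.144, Chl1 at 0.202, Ms4a7 at 0.203, Gpihbp1 at 0.204 and F13a1 at 0.212. Clec4a3, Ms4a7, Dnase1l3 and F13a1 are known from myeloid cells, Ppbp from platelets and Klra8 from natural killer cells. Of 12 macrophage list genes with enough counts, 5 were lower in RKP, 1, Cd86, was higher and 6 lay between, beside 23% lower and 16.5% higher of all genes. In cells with 80 or more counts, Klra8 was left with 0 transcripts in EKP, Ppbp with 1 and Dnase1l3 with 2 at a ratio of 0.310 (0.0782 to 2.69), and Chl1 was at 0.188 (0.0976 to 0.407), while Clec4a3 stayed at 0.133 (0.0859 to 0.214), F13a1 at 0.157 (0.115 to 0.218), Ms4a7 at 0.150 (0.106 to 0.218) and Gpihbp1 at 0.190 (0.115 to 0.336). In blood endothelial cells the RKP over EKP ratios were 1.20 for Clec4a3, 0.464 for F13a1, 1.15 for Ms4a7 and 1.06 for Gpihbp1.

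Among members with at least 2 counts of both Prox1 and Mmrn1, several genes were lower in RKP than in EKP. RKP over EKP ratios were 0.257 (0.209 to 0.320) for Angpt2, 0.245 (0.180 to 0.340) for Cavin2, 0.385 (0.318 to 0.469) for Eng, a coreceptor of the TGF-beta family, and 0.418 (0.284 to 0.640) for Gap43. Kdr was at 0.662 (0.513 to 0.869) and Pecam1 at 0.639 (0.491 to 0.847). Tie1 was at 0.948 (0.716 to 1.28), with an interval that reached from lower to higher in RKP. In blood endothelial cells Angpt2 was at 0.757, Cavin2 at 0.684 and Eng at 0.933. The EKP values came from 17 cells of 1 section, in which Angpt2 had 97 transcripts and Gap43 had 27.

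**Figure D5:**
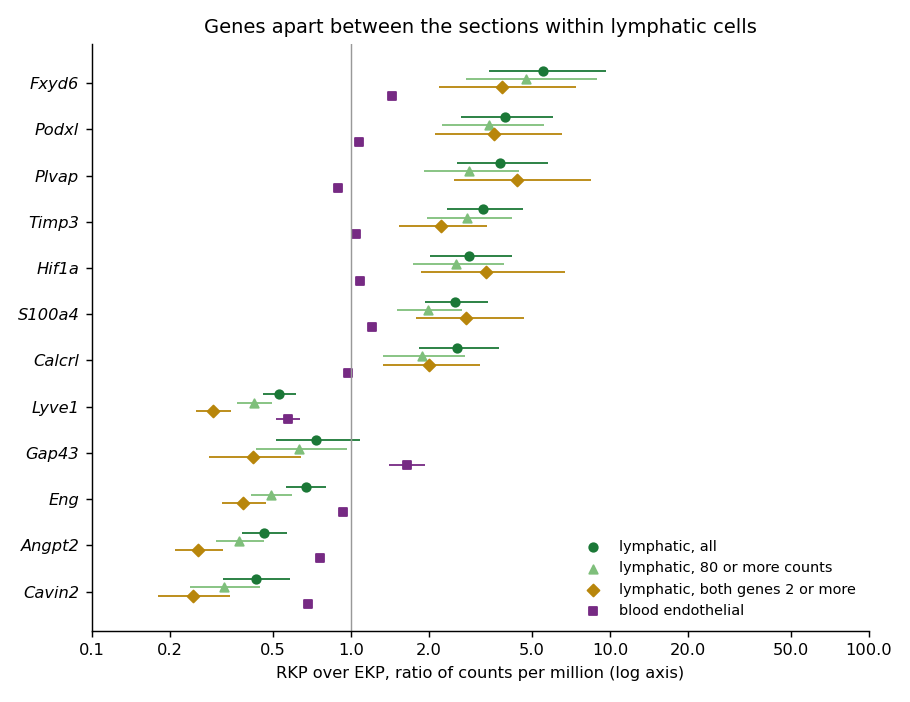
Points give the RKP over EKP ratio of CPM (horizontal log axis) by gene (vertical axis), in all lymphatic cells, those with 80 or more counts, those with 2 or more counts of both Prox1 and Mmrn1, and blood endothelial cells, with exact 95% counting intervals. The genes from Fxyd6 down to Calcrl lie right of 1 in all 3 sets of lymphatic cells and those from Lyve1 down to Cavin2 lie left of it.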

How the data were processed

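The deposited matrices hold whole-number transcript counts per cell and gene, which the authors made from Xenium images of 1 section per group. The submitters' processing notes name Seurat 4.4.0 without its role, and the sources used here give no segmentation method, quality limit or cell position. Summed counts per cell (median 154 in RKP, 84 in EKP) were taken over the panel of 379 genes and 100 added ones, with 20 negative control probes kept apart. Cells with 20 or more counts were grouped by Prox1, Mmrn1 and the 5 endothelial genes. Counts were summed per kind of cell and section and set per 1000000. A gene needed 20 summed counts in 1 of the kinds compared and more than the highest control probe. A call was a ratio of 2 or more, and a sum of 0 was set to 3 counts. Shares have Clopper-Pearson and ratios exact conditional binomial 95% intervals (scipy 1.17.1). Doublets were not removed. Simulated sums were drawn from the blood endothelial profile with counting error alone. They held no spread between cells and no wrongly chosen members, and the control probe limit was not applied. The rates therefore do not give the accuracy in the real cells. Simulated counts were judged over genes with 20 or more lymphatic counts awaited. Of these, 4-fold higher genes were called in 100% of 37 RKP genes and 81.3% of 16 EKP genes. Unchanged genes were rightly left uncalled in 95.18% of 166 RKP genes and 79.55% of 44 EKP genes. Genes with fewer awaited counts, which the main EKP comparison also holds, were not covered.

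The cells, marker lists and alternatives were chosen with earlier results of these data known. Named were the markers, the members of the endothelial lists, up to 10 genes per direction called alike in both sections, ranked by the smaller ratio, up to 8 per direction between sections, ranked by the interval bound nearest to 1 (1 of these is not reported here), genes called in opposite directions, and up to 4 of each other list by level. Members of other lists named for passing the 2-fold line were chosen after their values were seen. Alternatives covered the depth limit, both rules, scale, weighting, thinning, control subtraction, the filter and cells of mixed content. A further 3 were added after seeing the data: 80 counts per cell, lymphatic cells with 2 of the 5 genes, and a filter on lymphatic counts seen or awaited.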

Additional observations from a re-analysis of the deposited data

Results flagged for a closer look

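Among 395 genes with enough counts in both sections, 79 were lower in RKP, of which 22 were higher in EKP. These were the only genes called in opposite directions. Of all genes, 47.1% were higher in EKP, so their number says little, and it was 4 with 80 or more counts per cell. For 9 of the 22 genes, both intervals lay clear of 1. The difference between the sections was not tested for any of them. As log2 ratios of lymphatic over blood endothelial cells, Snap25 was at -2.97 in RKP and 2.60 in EKP, Chga at -2.62 and 2.46, Gad1 at -2.11 and 3.16, and Tmem212 at -1.65 and 1.75. Ms4a1 was at -1.64 in RKP and 3.68 in EKP, Apoc2 at -1.28 and 1.75, Cd300lf at -1.23 and 1.06, Csf3r at -1.19 and 1.18, and Ppbp at -1.0 and 1.70. None of the 9 is known as a gene of lymphatic endothelium. In the 24 EKP members with 80 or more counts, Gad1, Ms4a1 and Snap25 had 0 transcripts and Ppbp had 1, while Chga kept 11 and a log2 ratio of 2.88. In the 17 EKP members with 2 or more counts of both rule genes Chga had 0. In the 24 members with 80 or more counts, the EKP ratios of Apoc2, Cd300lf, Csf3r and Tmem212 were 3.14 (0.856 to 8.07), 1.60 (0.768 to 2.95), 1.76 (0.760 to 3.47) and 2.79 (0.574 to 8.17), each with an interval that spanned 1.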

How the results depend on the processing

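No paired analysis was possible because RKP and EKP had 1 section each and the labels gave no replicate numbers to pair them by. Of 112 values recomputed for the shares and counts of genes, 71 stayed within their interval or within 1.5 times and 41 did not, and the cause was not tested beyond the smaller number of cells or genes that a setting leaves. The ratio of lymphatic shares, RKP over EKP, was 22.3 at 40 counts per cell, 32.7 at 80, 34.9 with 2 or more counts of Prox1 and Mmrn1 and 41.7 with 2 of the 5 genes. Lyve1 was found in 69.3% of RKP members with 2 or more counts of both genes, 39.6% thinned, 53.4% without mixed cells, 65.04% at 80 counts and 66.1% with 2 of the 5 genes, and Tbx1 in 67.2%, 25.9%, 50%, 57.6% and 60.8%. In EKP, Lyve1 was found in 50% at 40 counts, 100% with 2 or more counts of both genes, 6.67% without mixed cells, 75% at 80 counts and 81.8% with 2 of the 5 genes, and Tbx1 in 47.1%, 0%, 33.3% and 36.4% under the last 4.

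Genes higher in RKP lymphatic cells numbered 84 with no filter and 19 without mixed cells, and lower ones 45 without mixed cells. Genes higher in EKP numbered 51 with 2 or more counts of both genes, 112 thinned, 49 without mixed cells, 70 at 80 counts, 61 with 2 of the 5 genes and 14 with the filter on counts seen or awaited, and lower ones 24 without mixed cells and 24 with that filter. Between sections, 29 of 101 genes were higher in RKP without mixed cells and 4 of 101 lower. Lower in RKP were 30 of 247 genes with 2 or more counts of both genes, 31 of 215 thinned and 212 of 463 with no filter. At 80 counts 39 of 275 were lower, and with 2 of the 5 genes 33 of 263. Without mixed cells, which left 15 EKP members, 6 EKP log2 ratios turned: Acan to 0.98, Epcam to 3.37, Muc1 to 2.18, Gm13889 to 1.25, Angpt2 to -2.67 and Cavin2 to -0.69. With 80 or more counts per cell, 24 genes were higher and 20 lower in both sections, against 38 and 24 over all members. Among the recomputed genes that passed 2-fold in RKP, 0 log2 ratios changed direction. In either section these turns were counted only for genes past the 2-fold line. Recomputed were the genes ranked alike in both sections and a fixed set of lymphatic and endothelial genes. Other named genes, such as Ndrg1, Cd36 and Cd86, were not covered. The 6188 EKP counts limit what could be seen there, since 1 transcript is 162 CPM.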

Other observations

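The lists of leukocyte genes gave these values between lymphatic and blood endothelial cells, beside 13.9% higher and 19.9% lower of all genes in RKP and 47.1% higher and 12.5% lower in EKP. Of the 8 measured T and NK cell genes, 2 were higher in RKP, Pdcd1, a checkpoint receptor, at 2.55-fold (2.00 to 3.22) and Prf1, the pore protein perforin, at 6.28-fold (4.24 to 9.13) on 39 transcripts, while Cd3e was at 1.48 (1.23 to 1.77). In EKP, Ctla4, Gzmb and Pdcd1 were higher on 2 or 3 transcripts each and Prf1 had 0 transcripts. Of the 6 neutrophil genes, 4 (Csf3r, Cxcr2, Ly6g and Mmp9) were lower and 0 higher in RKP, while in EKP Csf3r and Stfa2l1 were higher and Mmp9 was lower. Of the 14 macrophage genes, 13 had enough counts in RKP, where Cd86, a costimulatory ligand, was 2.14-fold (1.95 to 2.34) higher, Marco was at 2.53 (0.483 to 8.48) on 3 transcripts, and Mpeg1 was lower. In EKP 7 of the 14 were higher and 0 lower. These are shares of summed counts and not of cells of those types.

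Members with and without Lyve1 in RKP were compared after all were thinned at random to 40 counts, from 1 random draw and with no test. Of 856 members with Lyve1 and 506 without it, Tbx1 was left in 26.9% and 24.3%, Gap43 in 14.95% and 7.51%, Nts in 24.8% and 17.4%, and Serpina3n in 31.9% and 24.7%. Other genes high in lymphatic cells went the other way, with Fxyd6 in 36.3% and 44.3%, Kng2 in 2.80% and 5.53% and Cldn11 in 1.87% and 4.15%. Leukocyte genes with intervals clear of 1 included Ptprc in 8.76% and 14.4% (ratio 0.607, 0.434 to 0.850) and Cd86 in 5.49% and 10.7% (0.514, 0.340 to 0.775). Mpeg1 at 0.652, Itgam at 0.554 and Mmp9 at 0.491 went the same way. The difference was not confined to leukocyte genes. Aspn at 0.558, Bgn at 0.843, Myl9 at 0.495 and Tagln at 0.711 also had intervals below 1. Of the endothelial genes, Kdr at 1.40, Calcrl at 1.38, Pecam1 at 1.24 and Angpt2 at 1.34 had intervals above 1, while those of Tie1 at 1.12 and Plvap at 1.06 spanned it. For F13a1 in 7.94% and 5.34% (1.49, 0.940 to 2.42) and Mrc1 in 13.6% and 11.1% (1.22, 0.883 to 1.72) the interval spanned 1, so no direction is read. The genes of this comparison were chosen after their values were seen.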
